A study of Mus musculus with 10 samples.

Results

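The genes described here are 9 genes of neutrophil granules and of the neutrophil surface: Ngp, Camp, Ltf and Lcn2, whose products are packed into granules early or midway through neutrophil maturation, Mmp8, Mmp9 and Retnlg, which are made late, and Cd177 and Trem1, which encode surface proteins. They were chosen by name, as the rows whose Ensembl identifiers map to these mouse symbols, and are 9 of 45706 genes in the table. Neutrophils fill their granules in sequence as they mature in the bone marrow, first with peroxidase and serine proteases, then with antimicrobial proteins such as lactoferrin and cathelicidin, and last with gelatinase. Blood and tissue neutrophils have largely stopped transcribing the early sets, so the early and late genes together are often read as a clock of maturation. Several of the products are not confined to neutrophils, since macrophages and tumor cells can make Mmp9, and glandular epithelium can make lactoferrin and lipocalin 2.

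RNA was measured in 10 whole tumors collected on day 4 after injection of Braf V600E-driven melanoma cells into C57BL/6 hosts aged 8 weeks. The cells were COX-competent (Ptgs+/+) or had lost Ptgs1 and Ptgs2, which encode COX-1 and COX-2, through CRISPR/Cas9 editing (Ptgs-/-). Mice with NK cells gave 4 COX-competent and 3 Ptgs-/- tumors, and 3 more Ptgs-/- tumors grew in NK cell-depleted mice, which had been given 200 µg anti-NK1.1 (clone PK136) with 30 µg anti-asialo GM1 on days 0 and 2 by the labels. The study's methods describe another dosing schedule, and the sources used here do not say whether the Ptgs-/- cells came from 1 clone. The host keeps both genes, so a Ptgs-/- tumor still holds host cells that can express them. No Ptgs+/+ tumor came from a NK cell-depleted mouse.

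The libraries held 8150556 to 12839174 counts, and 3 counts in a library, the upper limit that a count of 0 allows, corresponded to 0.234 to 0.368 CPM, that is counts per 1000000 counts of the library. This covers counting error only. With errors as SD and n of 4, 3 and 3, Ptgs2 averaged 253 ± 110 CPM with COX, 43.0 ± 27.6 CPM without it and 44.8 ± 4.56 CPM without COX or NK cells. Ptgs1 averaged 152 ± 17.5, 94.0 ± 15.0 and 96.5 ± 1.24 CPM in that order. Ncr1, which encodes the NK cell receptor NKp46, had 20, 48 and 77 counts in the Ptgs-/- tumors and 0 in each tumor of an NK cell-depleted mouse. Ptgs+/+ replicate 4 and Ptgs-/- replicate 3 carry a second experiment code in the labels. The Ptgs-/- tumors differed among themselves in epithelial RNA. Epcam had 5, 46 and 184 counts in replicates 1, 2 and 3. A list of epithelial genes summed to 34.1, 49.2 and 97.6 CPM in the same order, so replicate 1 was lowest and replicate 3 highest in both.

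Neutrophil identity was checked against defining markers. Ly6g, the usual surface marker of mouse neutrophils, was nearly absent: it summed to 7 counts over the 10 libraries, 5 of them in Ptgs+/+ replicate 1. The granulocyte colony-stimulating factor receptor Csf3r averaged 3.38 ± 1.22 CPM where tumor COX was intact, 5.40 ± 0.305 CPM where it was lost and 4.64 ± 0.827 CPM after NK cell depletion (errors and n as above). The chemokine receptor Cxcr2 was 10.5 ± 2.37, 2.15 ± 0.720 and 4.82 ± 1.02 CPM in the same order. Primary granule genes were uneven. Elane, neutrophil elastase, had 1 count in all and Mpo, myeloperoxidase, had 17, at most 5 in a library. Prtn3, proteinase 3, of the same granules, had 10 to 167 counts in a library, with means of 9.02 ± 4.69, 6.18 ± 4.41 and 8.77 ± 1.29 CPM in the 3 groups, and Cxcr1, another chemokine receptor, had at most 2 counts.

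All 9 genes are protein coding, and 4 of them lie on chromosome 9 of GRCm38 in the GENCODE M21 annotation. Camp (109847379 to 109849617, minus strand), Ngp (110419747 to 110423012, plus strand) and Ltf (111019271 to 111042767, plus strand) follow one another with gaps of 570 and 596 kb, and Mmp8 lies apart at 7558456 to 7568485. Mmp9 (164940780 to 164955850, plus strand, 13 exons) and Lcn2 (32384633 to 32388252, minus strand) are on chromosome 2, Cd177 (24743983 to 24760311) on chromosome 7, Retnlg (48872621 to 48874496, 4 exons) on chromosome 16, and Trem1 (48232768 to 48246924) on chromosome 17.

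Promoter sequence was read from RefSeq (GRCm38.p6) for 8 of the 9 genes as 250 bases before to 50 after the start, with Mmp9 unmatched. Both strands were searched for TTNNGNAA, a core of the sites bound by C/EBP factors, which drive granulocyte genes, for GAGGAA, a core of PU.1 sites, and for TATAAA. The C/EBP core was in 7 of 8 (all but Camp), beside 40.7% of all 32851 promoters of the same length. GAGGAA was in 5 of 8, beside 28.3%, and TATAAA in 2 of 8, Mmp8 and Cd177, beside 13.6%. Such matches are letters in a window and not evidence of binding. The 4 sequences below are those of Trem1, which had the lowest fitted fold change, Mmp8, which passed only part of the test, Ltf, the most counted of the early genes, and Ngp, at 0 in 9 of 10 tumors. They run 5′ to 3′ upstream of the start and outside the annotated gene, with whole motif matches on either strand in capitals.
Trem1 (chr17:48232519-48232738, plus strand): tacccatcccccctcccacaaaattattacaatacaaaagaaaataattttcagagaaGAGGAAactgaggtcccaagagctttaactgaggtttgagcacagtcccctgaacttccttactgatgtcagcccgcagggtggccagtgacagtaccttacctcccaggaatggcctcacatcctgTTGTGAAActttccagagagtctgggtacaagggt
Mmp8 (chr9:7558209-7558428, plus strand): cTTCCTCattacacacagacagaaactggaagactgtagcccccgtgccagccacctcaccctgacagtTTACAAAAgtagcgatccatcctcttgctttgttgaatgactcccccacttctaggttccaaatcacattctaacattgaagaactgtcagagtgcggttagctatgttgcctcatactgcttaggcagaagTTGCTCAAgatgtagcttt
Ltf (chr9:111019072-111019270, plus strand): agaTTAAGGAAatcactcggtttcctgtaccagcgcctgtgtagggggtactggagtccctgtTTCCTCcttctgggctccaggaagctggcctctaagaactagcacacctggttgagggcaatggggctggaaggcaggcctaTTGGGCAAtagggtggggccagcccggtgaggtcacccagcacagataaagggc
Ngp (chr9:110419588-110419746, plus strand): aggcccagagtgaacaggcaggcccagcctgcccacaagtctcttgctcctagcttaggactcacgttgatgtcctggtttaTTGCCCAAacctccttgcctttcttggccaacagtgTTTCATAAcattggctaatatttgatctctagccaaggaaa
Ltf and Ngp share a C/EBP core with the letters TTGGGCAA on one strand or the other (TTGCCCAA in Ngp). Ltf was counted in every tumor and Ngp in 1.

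Trem1 encodes an activating receptor that amplifies inflammatory signals in neutrophils and monocytes. Its levels were 12.5, 9.69, 9.74 and 9.42 CPM in the Ptgs+/+ tumors, 1.72, 0.621 and 0.547 in the Ptgs-/- tumors, and 1.71, 2.31 and 2.09 after NK cell depletion. Every Ptgs+/+ tumor was far above every Ptgs-/- tumor, and the Ptgs-/- groups overlapped only through replicate 1 of the tumors with NK cells.

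Mmp9 encodes gelatinase B, which cleaves denatured collagen and basement membrane. It was counted 4290, 3376, 1871 and 2999 times in Ptgs+/+ tumors, which is 334, 348, 164 and 314 CPM. The Ptgs-/- tumors had 29.8, 33.1 and 37.7 CPM, and depletion of NK cells went with 53.1, 59.5 and 40.6. The 3 groups did not overlap, and Ptgs+/+ replicate 3, the lowest of its group, was still above all others.

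Mmp8 encodes neutrophil collagenase. Its levels were 7.24, 5.46, 5.53 and 3.56 CPM in Ptgs+/+ tumors, 2.09, 2.28 and 2.28 in Ptgs-/- tumors, and 3.85, 4.98 and 5.96 in NK cell-depleted mice. The Ptgs-/- tumors with NK cells were below both other groups, which overlapped with each other.

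Retnlg encodes a resistin-like protein found in circulating mouse neutrophils. It stood at 4.75, 5.26, 4.83 and 6.80 CPM in Ptgs+/+ tumors and at 2.21, 9.83 and 8.21 in Ptgs-/- tumors. In NK cell-depleted mice it was 22.4, 23.4 and 10.3 CPM, above every tumor of the other groups. Ptgs-/- tumors with NK cells lay on both sides of the Ptgs+/+ range.

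Lcn2 encodes lipocalin 2, which binds bacterial siderophores. Its levels were 4.91, 10.1, 11.4 and 13.5 CPM in Ptgs+/+ tumors, 0.736, 0.828 and 4.38 in Ptgs-/- tumors, and 4.71, 3.32 and 4.37 in NK cell-depleted mice. Ptgs-/- replicate 3 was within the range of the NK cell-depleted mice and close to the lowest Ptgs+/+ tumor.

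Ltf encodes the iron-binding protein lactoferrin. It was counted 17, 63, 77 and 40 times in Ptgs+/+ tumors, 1, 12 and 43 times in Ptgs-/- tumors and 24, 35 and 36 times in NK cell-depleted mice. As levels these ran from 1.32 to 6.76, 0.123 to 3.92 and 2.57 to 3.58 CPM, so that all groups overlapped.

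The remaining genes were hardly detected. Camp, the cathelicidin gene, had 14, 6, 0 and 6 counts in Ptgs+/+ tumors, 1, 0 and 1 in Ptgs-/- tumors and 0, 2 and 0 in NK cell-depleted mice. Ngp, which encodes neutrophilic granule protein, had 2 counts in Ptgs-/- replicate 3 and 0 elsewhere. Cd177, a glycosylphosphatidylinositol-anchored neutrophil antigen, had 6, 3, 3 and 3 counts, then 0, 4 and 1, then 1, 6 and 2. Only Camp and Cd177 exceeded 3 counts anywhere, each in 3 libraries. Exact two-sided permutation tests of CPM gave p = 0.143 for Camp and p = 0.229 for Cd177 in Ptgs-/- against Ptgs+/+ tumors. The counts were few, and each group held only 3 or 4 tumors. No difference in these genes was detected here, and its absence was not shown either.

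**Figure D1:**
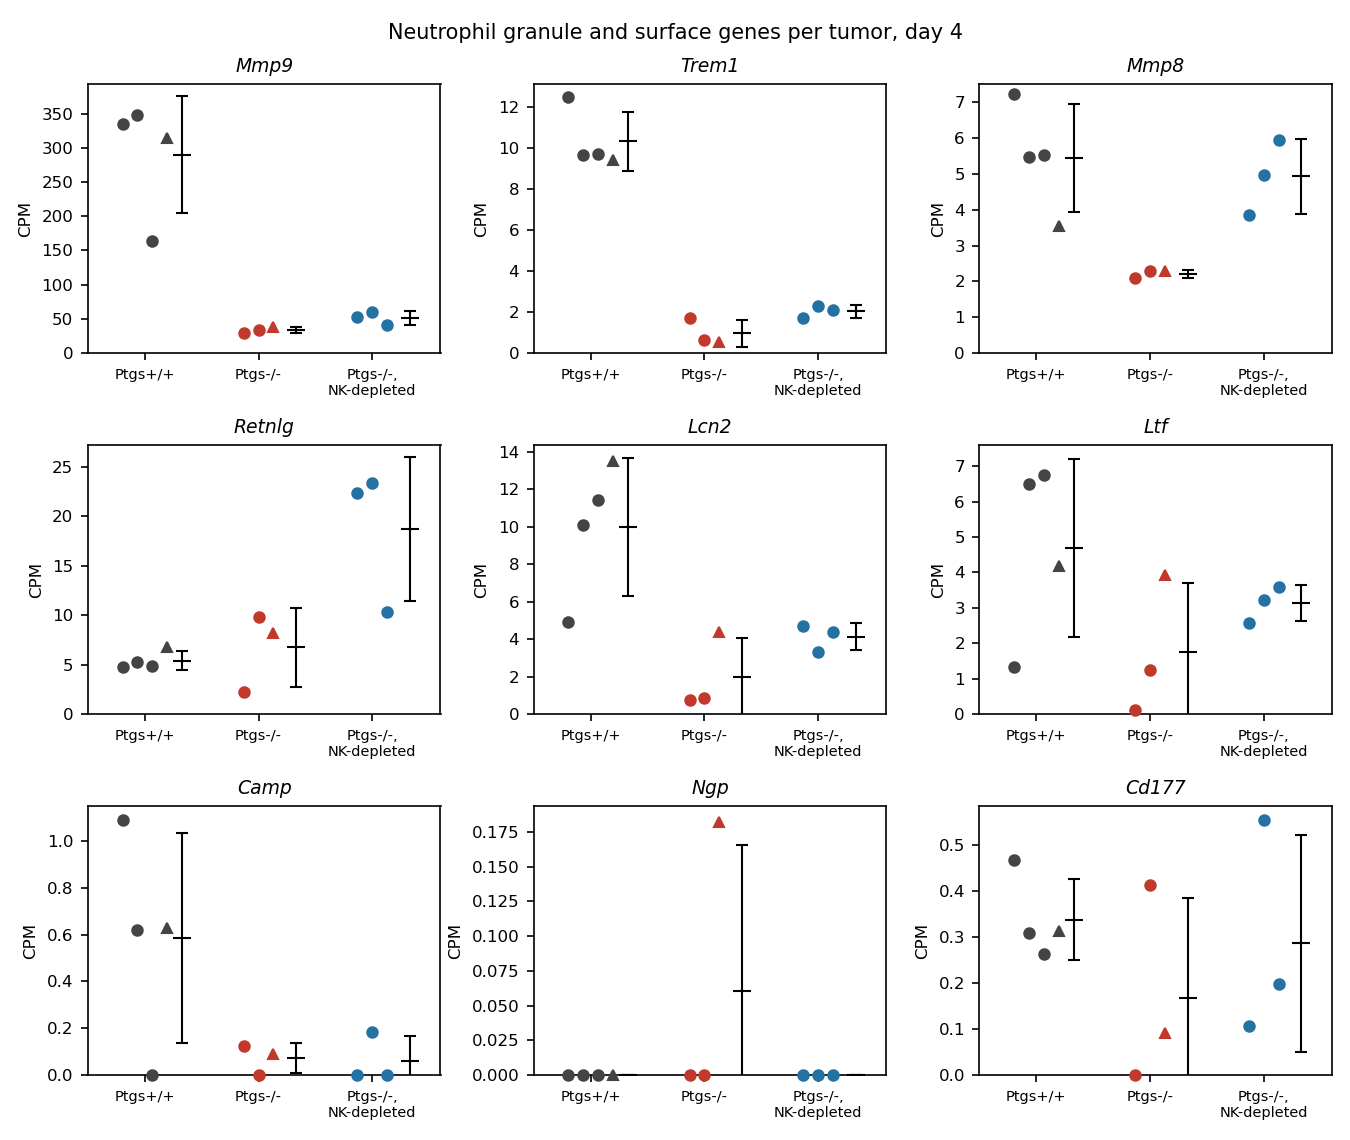
Level of each of the 9 genes in CPM (linear y axis, scaled to each gene) in the 3 groups of tumors (COX-competent, Ptgs-/-, and Ptgs-/- with NK cells depleted), 1 point per tumor, with triangles for tumors of the second experiment code. Horizontal ticks and bars show the mean and SD, with bars cut off at 0; Trem1 and Mmp9 are high in the 4 Ptgs+/+ tumors alone, and Retnlg is highest in the NK cell-depleted mice.

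Loss of tumor COX was tested first, by comparing Ptgs-/- with Ptgs+/+ tumors. Trem1 fell 11.6-fold, Mmp9 fell 9.01-fold and Lcn2 fell 5.02-fold, Mmp8 was 2.57-fold lower but short of the fold required, and Retnlg and Ltf did not pass. Genes were fitted with edgeR's quasi-likelihood test over the 14550 genes left by its low-count filter. A gene was called where the Benjamini-Hochberg false discovery rate (FDR) was 0.05 or less and the log2 fold change was 1.5 or more in size. The filter kept 6 of the 9 genes and left out Ngp, Camp and Cd177. Of the 6, 3 were called lower, where 1.01% of all genes tested were, and 0 were called higher, where 3.14% of all were. In bulk RNA, fewer cells of a type and less RNA per cell cannot be told apart.

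Trem1 had a log2 fold change of −3.53 with a standard error of 0.338, and Mmp9 one of −3.17 with 0.259 (edgeR adjusted p = 8.47e-05 and 3.63e-05). Lcn2 had −2.33 with a 95% interval from −3.48 to −1.18 (edgeR adjusted p = 0.00879). Mmp8 had −1.36 (0.272, adjusted p = 0.00454), which passed the FDR alone, as did 4 of the 6 genes in the lower direction and 0 in the higher, where 11% and 12.1% of all genes did. Ltf had −1.40 with a 95% interval from −2.89 to 0.09 (adjusted p = 0.163), and Retnlg 0.28 with an interval from −0.63 to 1.19 (adjusted p = 0.668). The median over the 6 was −1.87, beside −0.01 over all genes tested.

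Among tumors of the first experiment code, 3 Ptgs+/+ and 2 Ptgs-/-, the log2 fold changes were −3.24 for Trem1, −3.19 for Mmp9, −3.49 for Lcn2, −1.496 for Mmp8 and −2.75 for Ltf (edgeR adjusted p = 0.0019, 0.00147, 0.00317, 0.011 and 0.0547), with Mmp8 just short of the fold. The second code holds 1 tumor of each genotype and gives no test. Lcn2 and Ltf moved most without Ptgs-/- replicate 3, where they were −3.66 and −2.70 (edgeR adjusted p = 0.00113 and 0.0369). Without Ptgs-/- replicate 1, Trem1 was −4.20, Lcn2 −1.97 and Ltf −0.91 (edgeR adjusted p = 1.43e-05, 0.0227 and 0.309).

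**Figure D2:**
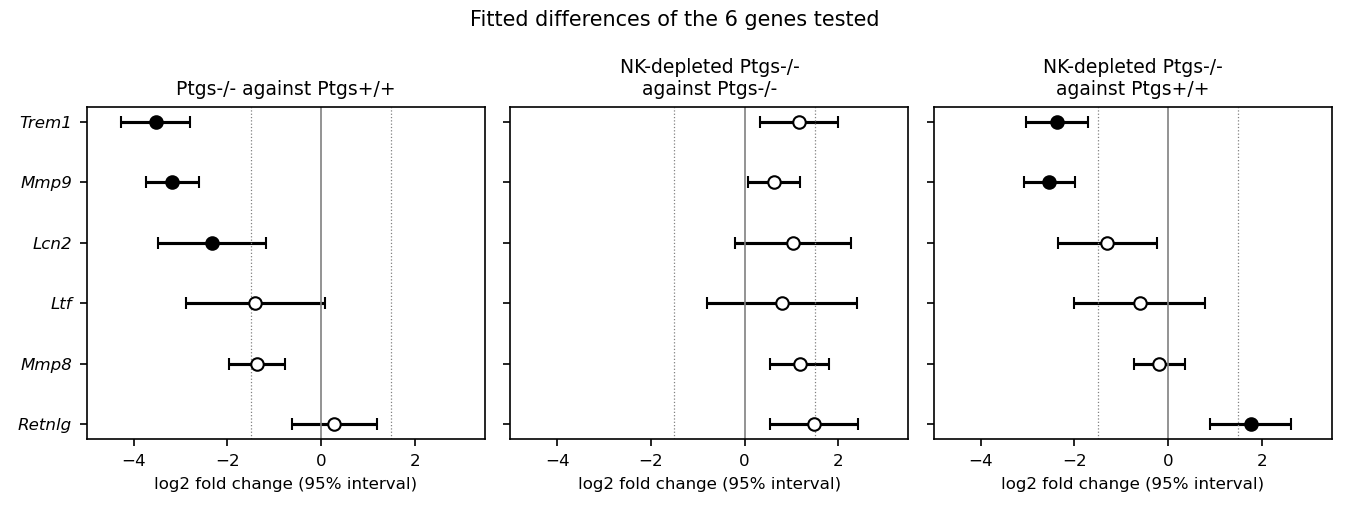
Fitted log2 fold change (x axis) of the 6 genes tested, with 95% intervals, in the 3 comparisons; filled points passed both thresholds and dotted lines mark a log2 fold change of 1.5 in either direction. Trem1, Mmp9 and Lcn2 lie below the lower line at left, all 6 genes lie above 0 in the middle without passing the FDR, and Retnlg and Mmp9 point in opposite directions at right.

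The effect of NK cells was examined within Ptgs-/- tumors, by comparing NK cell-depleted mice with mice that kept their NK cells. No gene of the set passed edgeR's quasi-likelihood test, where 0.825% of all genes tested were called higher and 0.323% lower. The log2 fold changes were 1.49 for Retnlg (standard error 0.429, adjusted p = 0.17, edgeR), 1.18 for Mmp8 (0.288, adjusted p = 0.0873), 1.16 for Trem1 (0.384, adjusted p = 0.252), 1.03 for Lcn2 (0.567, adjusted p = 0.553), 0.79 for Ltf (0.733, adjusted p = 0.744) and 0.64 for Mmp9 (0.252, adjusted p = 0.367). The median was 1.10, beside 0.01 over all genes. At an unadjusted p under 0.05, 4 of the 6 passed in edgeR, all higher, as did 4.32% of all genes in that direction. DESeq2 and the likelihood ratio test also called 0, but the FDR alone was met by Retnlg and Mmp8 under DESeq2 (adjusted p = 0.0292 and 0.0318), under the likelihood ratio test (0.038 and 0.0161) and under edgeR's test with no filter (0.0101 and 0.042). In those fits 1.20%, 1.26% and 0.734% of all genes passed the FDR upward, and Retnlg, at 1.486 to 1.496, was just short of the fold. Retnlg, Mmp8 and Mmp9, 3 of the 6, were higher in every NK cell-depleted tumor than in any other Ptgs-/- tumor, which 7.16% of all genes tested were. Trem1 was called only when Ptgs-/- replicate 1 was left out, at 1.82 (edgeR adjusted p = 0.0147). Among tumors of the first experiment code, with 2 Ptgs-/- tumors that kept NK cells, Lcn2 and Ltf had 2.37 and 2.10, Retnlg 1.60 and Trem1 0.83, with 0 genes of the set passing (edgeR adjusted p = 0.081, 0.439, 0.318 and 0.542). Without Ptgs-/- replicate 1, Lcn2, Ltf and Retnlg had 0.68, 0.30 and 1.09 (edgeR adjusted p = 0.628, 0.861 and 0.13).

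The comparison of NK cell-depleted Ptgs-/- tumors with Ptgs+/+ tumors changes genotype and NK cells together, and shares its samples with both comparisons above. Mmp9 fell 5.80-fold and Trem1 fell 5.17-fold, whereas Retnlg rose 3.4-fold. Thus 2 of the 6 genes were called lower, where 0.701% of all genes tested were, and 1 was called higher, where 2.01% were. The log2 fold changes were −2.54 for Mmp9 (standard error 0.249, adjusted p = 0.000108, edgeR), −2.37 for Trem1 (0.299, adjusted p = 0.000426) and 1.77 for Retnlg (0.397, adjusted p = 0.0139). Lcn2 had −1.30 (adjusted p = 0.106, edgeR), Ltf −0.61 (adjusted p = 0.602) and Mmp8 −0.18 with a 95% interval from −0.73 to 0.36 (adjusted p = 0.696). Among tumors of the first code, Mmp9, Trem1 and Retnlg had −2.50, −2.41 and 1.89 (edgeR adjusted p = 0.00106, 0.00153 and 0.0331). The call for Retnlg was lost without NK cell-depleted replicate 1 (1.62, edgeR adjusted p = 0.0583) or replicate 2 (1.56, adjusted p = 0.0631).

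Early-granule genes (Ngp, Camp and Ltf) were set against mature-cell genes (Retnlg, Mmp8 and Mmp9) within each tumor, as the log2 ratio of their summed counts with 0.5 added to each sum. The ratio was −7.14, −5.65, −4.68 and −6.06 in Ptgs+/+ tumors, −6.80, −5.13 and −3.51 in Ptgs-/- tumors, and −4.92, −4.67 and −3.97 in NK cell-depleted mice. The group means with their SD were −5.88 ± 1.02 over 4 tumors, −5.15 ± 1.65 over 3 and −4.52 ± 0.49 over 3, and the groups overlapped. Mature-cell counts exceeded early-granule counts in every tumor. The sums rested unevenly on Ltf and Mmp9. Mmp9 gave 94.1% to 97.0% of the mature counts in Ptgs+/+ tumors, 73.2% to 87.4% in Ptgs-/- tumors and 66.9% to 71.4% with NK cells depleted. Ltf gave 87.0% to 100% of the early counts in 8 tumors, 54.8% in Ptgs+/+ replicate 1 and 1 of 2 counts in Ptgs-/- replicate 1. Without Mmp9 the order of the groups turned, with means of −1.15 ± 0.80, −2.79 ± 1.31 and −2.85 ± 0.60.

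The 6 tested genes did not vary as one set between tumors. Over the 10 tumors, Pearson's r of log2(CPM + 1) was 0.949 for Mmp9 with Trem1 and 0.845 for Lcn2 with Ltf, but 0.385 for Ltf with Trem1 and −0.290 for Retnlg with Mmp9. These values share the group differences, and once group means were subtracted r was 0.838 for Lcn2 with Ltf and −0.057 for Mmp9 with Trem1. They describe 10 libraries and carry no test.

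Among all genes tested, the 5 most like Ltf across the 10 tumors were Cldn3, Mlph, Dsp, Cdh1 and Epcam (r from 0.968 to 0.976), of which Cldn3, Cdh1 and Epcam encode tight junction, adherens junction and epithelial adhesion proteins and Dsp a desmosomal plaque protein. Epcam had 7.01, 25.4, 32.0 and 18.3 CPM in Ptgs+/+ tumors, 0.613, 4.76 and 16.8 in Ptgs-/- tumors, and 16.7, 11.1 and 16.8 in NK cell-depleted mice. The tumors low in Ltf, Ptgs+/+ replicate 1 and Ptgs-/- replicates 1 and 2, were also the lowest in Epcam. The 5 genes most like Lcn2 were Lalba, Coq7, Clca3a2, Cluh and Col4a2 (r from 0.941 to 0.963), of which Lalba encodes the milk protein alpha-lactalbumin and had 0.123 to 1.67 CPM. With the epithelial genes Krt5, Krt14, Krt15, Epcam, Cdh1 and Trp63, r was 0.753 to 0.972 for Ltf and 0.785 to 0.871 for Lcn2, and with Krt10, of the upper epidermis, it was −0.635 and −0.649. These values come from the same 10 libraries and carry no test. As a whole, the epithelial list (Krt5, Krt14, Krt10, Krt15, Epcam, Cdh1 and Trp63, all tested) summed to 64.3 to 168 CPM in Ptgs+/+ tumors, 34.1 to 97.6 in Ptgs-/- tumors and 91.4 to 112 in NK cell-depleted mice. In Ptgs-/- against Ptgs+/+ tumors its median log2 fold change was −1.42, and 1 gene was called, Krt5 at −1.81 (edgeR adjusted p = 0.026). The part of epithelial RNA in the Lcn2 and Ltf values was not tested.

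Trem1 and Mmp9 followed other genes. Those most like Trem1 were Arhgef17, Ereg, Ppbp, Eif4e and Wnt10a (r from 0.982 to 0.988), and those most like Mmp9 were Ak5, Slco1a5, Gcnt2, Rgs16 and Cip2a (r from 0.980 to 0.987). Ereg encodes the growth factor epiregulin and had 109 to 164 CPM in Ptgs+/+ tumors and 21.6 to 39.1 in Ptgs-/- tumors. Ppbp, the gene of a chemokine that acts on Cxcr2, had 13.9 to 24.0 and 0.310 to 0.982 CPM. Retnlg was most like Enpp3 (r = 0.929), and Mmp8 most like Mmp14 (r = 0.937), a membrane-anchored metalloproteinase gene. With group means subtracted the closest were Aurkaip1 for Retnlg and Zswim6 for Mmp8 (r = 0.967 and 0.971). For the mean of the 6 standardized profiles the 5 closest genes were Serp2, Cnnm2, Haus1, Pigq and Ctnnbip1 (r from 0.954 to 0.992), and with group means subtracted they were Itgax, Gm38037, Itgal, Exoc1 and Trdc. The likeness to single genes was added after the values were seen.

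**Figure D3:**
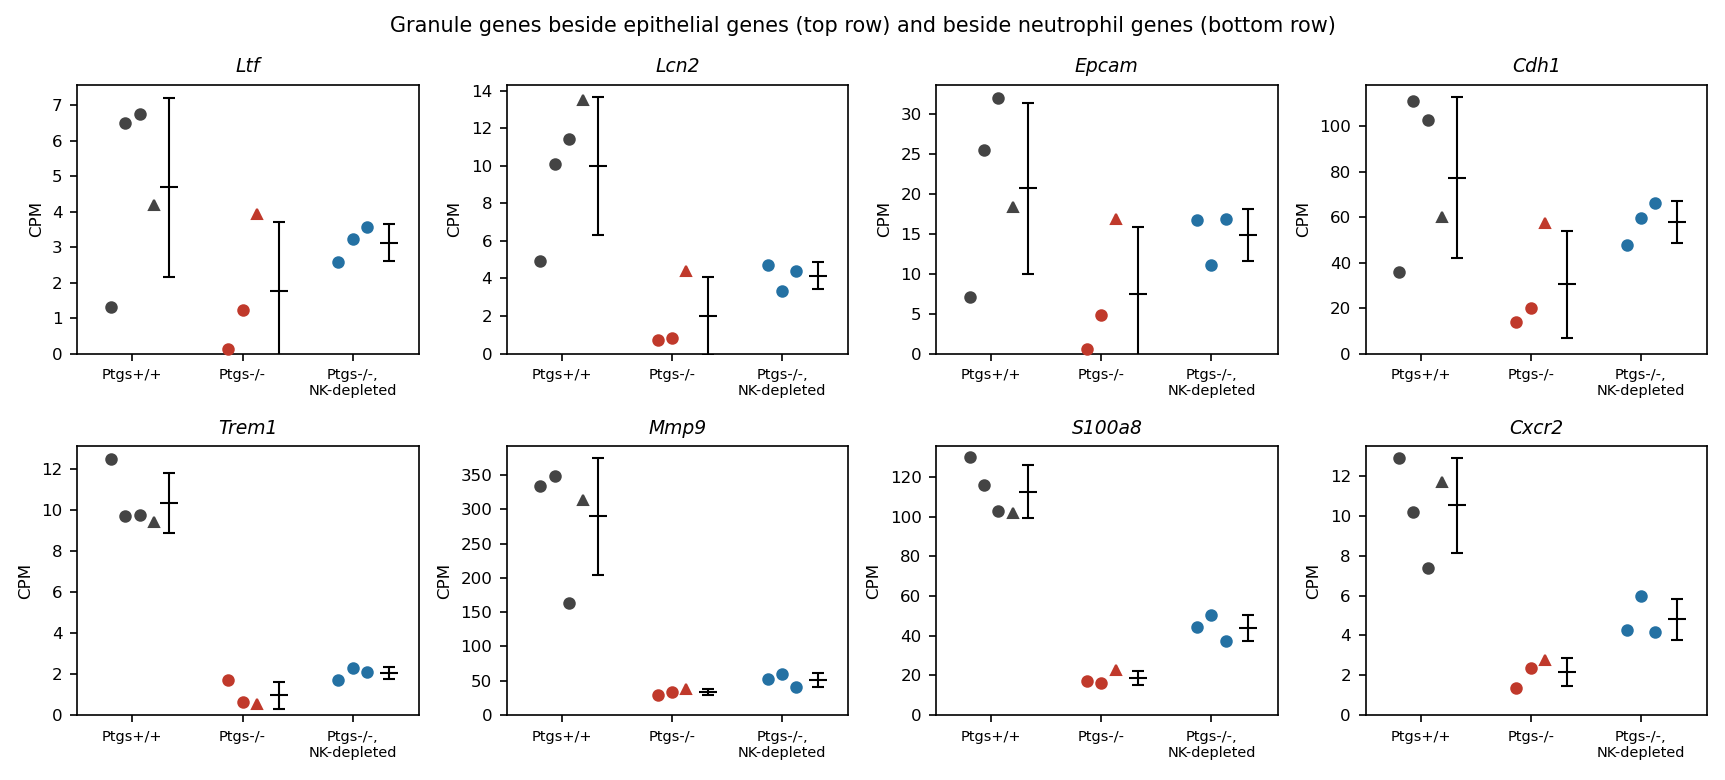
CPM per tumor (linear y axis, scaled to each gene) of Ltf and Lcn2 beside the epithelial genes Epcam and Cdh1 in the top row, and of Trem1 and Mmp9 beside S100a8 and Cxcr2 in the bottom row. Points are tumors (triangles, second experiment code), and ticks with bars are mean and SD, cut off at 0; the Ptgs-/- group spreads widely in the top row and is tight and low in the bottom row.

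Other neutrophil genes were followed through lists written by role. Of 14 genes of neutrophil cytoplasm and secretion, 9 were tested in Ptgs-/- against Ptgs+/+ tumors, 4 were called lower and 1 higher, and the median was −1.30. S100a8 and S100a9, the subunits of calprotectin, fell by 2.65 and 2.70 on the log2 scale (edgeR adjusted p = 9.85e-06 and 1.47e-05). Slpi, an inhibitor of neutrophil elastase, fell by 3.20 (edgeR adjusted p = 0.000191), and Hdc, which makes histamine, fell by 1.82 (edgeR adjusted p = 0.000934). Padi4, which citrullinates histones during formation of extracellular traps, rose by 1.91 (edgeR adjusted p = 0.00414). S100a8 had 102 to 130 CPM in Ptgs+/+ tumors, 16.4 to 22.8 in Ptgs-/- tumors and 37.3 to 50.4 in NK cell-depleted mice, with no overlap.

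Of 15 surface and signalling genes, 11 were tested, 3 were called lower and 0 higher, and the median was 0.23. Cxcr2, the receptor of CXC chemokines, fell by 2.32 (edgeR adjusted p = 0.000311), and the C-type lectin receptors Clec4d and Clec4e fell by 2.17 and 1.76 (edgeR adjusted p = 0.000628 and 0.00119). Csf3r had 0.61 (edgeR adjusted p = 0.123). Itgam, an integrin chain of neutrophils and macrophages, passed the FDR alone at 0.92 (edgeR adjusted p = 0.00172). The list therefore held genes on both sides.

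Of 8 other genes of secondary granules, 4 were tested, with 1 called in each direction. Hp, haptoglobin, fell by 2.25 (edgeR adjusted p = 0.0186), from 7986 to 19178 counts in Ptgs+/+ tumors to 451, 2591 and 5537 in Ptgs-/- tumors, and Ptgs-/- replicate 1 was again the lowest. Ly6g, Camp and Ngp were hardly counted in the same tumors, and which cells made the Hp RNA was not tested. Cybb, the gp91 chain of the phagocyte oxidase, which macrophages share, rose by 1.94 (edgeR adjusted p = 3.63e-05). Of 5 primary granule genes only Prtn3 was tested, with −0.58 (edgeR adjusted p = 0.457). Of 7 regulators of granulocyte development, all tested, Cebpe and Gfi1 rose by 1.81 and 2.14 (edgeR adjusted p = 0.00135 and 0.029). Their levels stayed low, at 2.21 to 2.74 CPM and 1.23 to 2.10 CPM in Ptgs-/- tumors. By the FDR alone, 3 of the 7 regulators were higher and 1 was lower, Cebpd at −0.83 (edgeR adjusted p = 0.0102). The median of that list was 0.02.

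Of the partners and inhibitors of the 9 genes, those tested were all below the fold required. Of 10, 9 were tested and 0 were called, with 2 lower and 3 higher by the FDR alone. Timp1, an inhibitor of Mmp9, had −1.25 (edgeR adjusted p = 0.000218) and Pecam1, a binding partner of Cd177, −0.96 (edgeR adjusted p = 0.0157). Timp3, of the same family as Timp1, and Itgb2 were higher, at 1.305 and 1.15 (edgeR adjusted p = 0.00514 and 0.000615). Tyrobp, the adaptor through which Trem1 signals, had 0.57 (edgeR adjusted p = 0.0055), opposite in sign to Trem1, and Slc22a17, a receptor of lipocalin 2, had −0.16 (edgeR adjusted p = 0.594). Of 8 relatives of Retnlg and Trem1, 6 were tested and 1 was called: Retnla rose by 3.95 (edgeR adjusted p = 0.00025), from 18.0 to 96.9 CPM in Ptgs+/+ tumors to 598 to 919 in Ptgs-/- tumors. Retn, resistin itself, had −0.57 (edgeR adjusted p = 0.65) and Trem2, a macrophage receptor, 0.59 (edgeR adjusted p = 0.00979).

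With NK cells depleted in Ptgs-/- tumors, 0 genes of these lists were called in either direction. By the FDR alone, which 0.921% of all genes passed upward and 0.515% downward, S100a8 and S100a9 were higher, by 1.26 and 1.14 on the log2 scale (edgeR adjusted p = 0.00237 and 0.0116), and the formyl peptide receptor Fpr2 was at −1.36 (edgeR adjusted p = 0.0137). Cxcr2 had 1.17 (edgeR adjusted p = 0.108). Against Ptgs+/+ tumors, Clec4d, Slpi and S100a9 were called lower in the tumors of NK cell-depleted mice, at −2.15, −2.12 and −1.56 (edgeR adjusted p = 0.00084, 0.00164 and 0.000233), and Retnla and Cebpe higher, at 3.70 and 2.03 (edgeR adjusted p = 0.000363 and 0.000878).

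**Figure D4:**
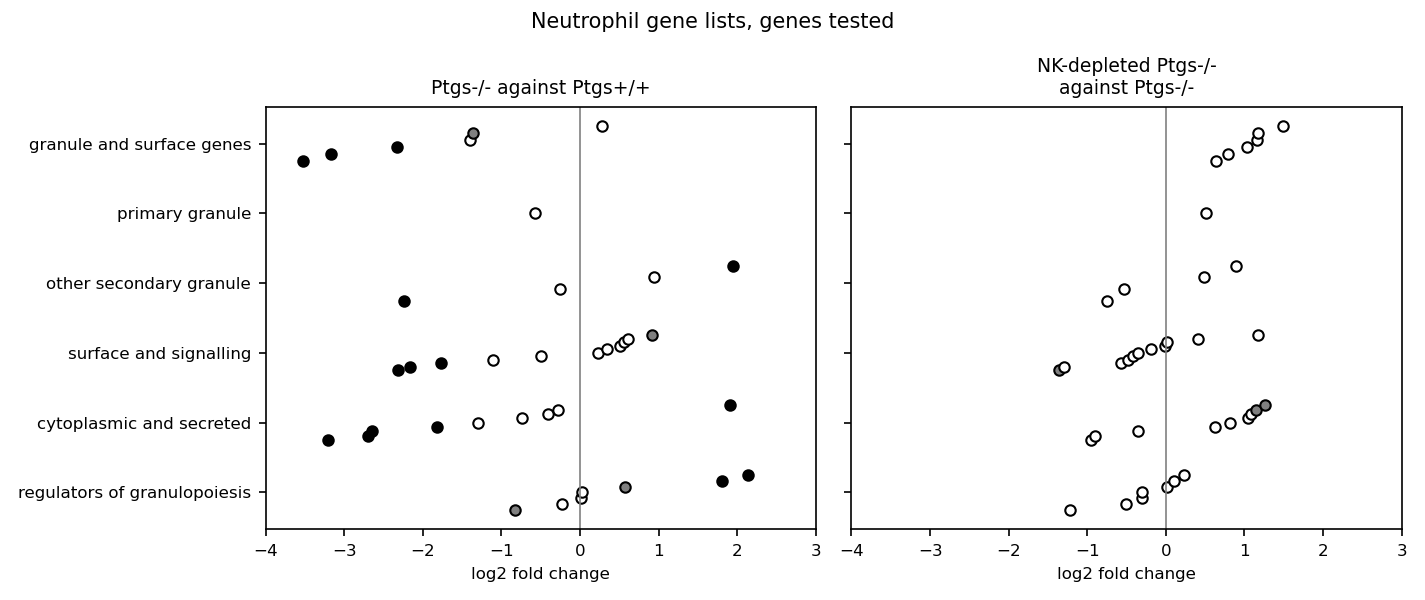
Log2 fold change (x axis) of each gene tested in the 9-gene set and 5 further neutrophil lists, 1 point per gene, for Ptgs-/- against Ptgs+/+ tumors and for NK cell-depleted against NK cell-competent mice within Ptgs-/- tumors. Black points passed both thresholds, grey points the FDR alone and white points neither. At left every list holds genes on both sides of 0 except primary granule, with 1 gene tested, and at right no point is black.

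Markers of other cells moved with genotype too. All 10 macrophage genes were tested and summed to 2445 to 3040 CPM in Ptgs+/+ tumors, 4030 to 6016 in Ptgs-/- tumors and 3853 to 4110 in NK cell-depleted mice, with 8 higher by the FDR alone in Ptgs-/- tumors and 0 called. Of 7 monocyte genes, all tested, 3 were called higher, Ly6c2 at 2.19, Ccr2 at 1.75 and Plac8 at 1.55 (edgeR adjusted p = 0.000131, 0.00013 and 0.00145), and the list summed to 472 to 648, 940 to 1573 and 791 to 974 CPM. By the FDR alone, 4 were higher and 1 was lower in Ptgs-/- tumors, the latter Vcan at −0.93 (edgeR adjusted p = 0.00025). Mmp9, Trem1, Clec4d and Clec4e, which monocytes and macrophages can express, were lower in the same tumors. Of 6 erythroid genes, 4 were tested and all 4 passed the FDR alone in the lower direction, and all 6 summed to 535 to 1622 CPM in Ptgs+/+ tumors, 327 to 525 in Ptgs-/- tumors and 359 to 648 in NK cell-depleted mice. Erythroid RNA was highest in Ptgs+/+ replicates 1 and 3, of which replicate 3 had the lowest Mmp9 of its group. Alas2, a heme synthesis gene of red cell precursors, had at most 2 counts in a library. Of 5 platelet genes, 3 were tested and 1 was called, Ppbp at −4.93 (edgeR adjusted p = 1.27e-05), while Gp9 and Gp1ba were at or near 0.

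Eosinophil and mast cell genes were examined because granulocytes share many products. Of 5 eosinophil genes 3 were tested. All 5 summed to 6.46 to 9.21 CPM in Ptgs+/+ tumors, 7.48 to 27.0 in Ptgs-/- tumors and 13.6 to 30.0 in NK cell-depleted mice, and the granule gene Epx was at 0 in every library. Siglecf was called higher in Ptgs-/- tumors, at 2.08 (edgeR adjusted p = 0.00221), and with NK cells depleted both Siglecf and Alox15 were higher than in Ptgs+/+ tumors, at 2.19 and 1.60 (edgeR adjusted p = 0.00247 and 0.0371). The list sum and Retnlg were both lowest among Ptgs-/- tumors in replicate 1. Of 6 mast cell genes, all tested, 0 were called in any comparison, and their sums were 88.8 to 128, 40.6 to 240 and 148 to 252 CPM. The part of these cell types in the levels of Retnlg, Mmp9 or Trem1 was not tested. Of 6 melanocytic genes 2 were tested and 0 were called. Of 6 NK cell genes 5 were tested, with 4 called higher in Ptgs-/- than in Ptgs+/+ tumors and 5 called lower with depletion.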

How the data were processed

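RNA of 10 day 4 tumors was made into QuantSeq 3′ libraries, which tag transcript ends and do not weight long genes. Raw counts per gene were deposited, without normalization: the authors had used STAR (GRCm38) on trimmed reads and featureCounts for assignment to genes. Use of strand is not stated, so overlapping genes are uncertain. Groups came from the submitters' labels, which do not state that tumors of a group came from separate animals, so p-values measure the spread between these tumors. Replicates differed by 7.41 to 30.1 in chi-square per degree of freedom, and none was counted more than once.

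Of 45706 identifiers, 45143 were named through GENCODE M21 and 563 were not. The test was that of edgeR 4.0.16 under R 4.3.3 (TMM, filterByExpr, quasi-likelihood test, 3 groups in 1 model), and DESeq2 1.42.0 as an alternative. Thresholds follow the study's methods. CPM are counts per 1000000 counts of the library, and log2(CPM + 1) was used for correlations. Named genes were the 9 genes, checks of the labels, 7 fixed neutrophil markers, called genes of the other lists (at most 6 a list) and the 5 genes of most similar profile. Some genes that passed the FDR alone, genes most like each single member, and markers at or near 0 were named after their values were seen. The 9 genes and all lists were chosen with earlier results of these data known. The test was checked on simulated counts of 14331 genes for the genotype comparison, 200 of them shifted by 2 on the log2 scale: 188 were recovered (94.0%) with 2 unchanged genes called. The shifted genes were drawn only from those above a minimum expected count, so this share does not describe genes of low counts. Alternatives were library size alone, DESeq2, a likelihood ratio test, no filter, at least 10 counts in every library, the FDR alone, the experiment code as a term or its first value alone, only the groups compared, a block on the title number, and each tumor left out.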

Additional observations from a re-analysis of the deposited data

Results flagged for a closer look

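Trem1 in Ptgs+/+ replicate 1, at 12.5 CPM, stood apart from the other 3 Ptgs+/+ tumors, which were within 9.42 to 9.74 CPM. Its gap to the next tumor was 0.896 of the group's range, past Dixon's 95% critical value for 4 samples. Of 8 genes of the set tested this way in Ptgs+/+ tumors (Ngp was at 0 throughout), 1 passed, and chance gives about 1 in 20. Groups of 3 were not tested.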

How the results depend on the processing

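For single genes, 344 of 351 alternative values kept their direction and side of the threshold. Under the FDR alone the fold changes repeat the main fit, so only the call could differ there. For counts of calls, medians and group ratios, 123 of 136 stayed close. Close meant a count of similar size, a median within 0.307, or a mean ratio within its group's SD. Leaving out 1 tumor of a group cannot move the mean ratio past that SD, so those ratio values were close by construction. Requiring at least 10 counts in every library removes Trem1, Lcn2 and Ltf from the test and left 1 call in Ptgs-/- against Ptgs+/+ tumors, with medians of −1.34 there and −0.17 in NK cell-depleted Ptgs-/- against Ptgs+/+ tumors. The experiment code as a term moved the first median to −2.22 and the first code alone to −2.97. With the FDR alone, Mmp8 (−1.36) joined the calls.

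Leaving out each tumor gave 3 to 4 calls and medians of −2.94 to −1.65 in Ptgs-/- against Ptgs+/+ tumors (4 calls without Ptgs+/+ replicate 4 or Ptgs-/- replicate 3), 0 to 1 calls and medians of 0.79 to 1.38 for NK cell depletion within Ptgs-/- tumors, and 2 to 3 calls and medians of −1.23 to −0.79 in the remaining comparison. Without Ptgs+/+ replicate 4, Mmp8 reached −1.52. Retnlg turned from 0.28 to −0.079 without Ptgs-/- replicate 2 and was 0.675 without replicate 1, none of them called. The log2 ratio of early to mature genes ranged from −6.28 to −5.46, −5.96 to −4.32 and −4.79 to −4.32 in the groups in the order given in the results. As a difference of mean log2(CPM + 1) it was −3.49, −2.72 and −3.45, and without Mmp9 −1.15, −2.79 and −2.85. The cause of these shifts was not tested, apart from the fewer genes kept by the stricter filter.

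Numbers in the sample titles did not clearly pair the tumors: correlations of same-numbered deviations ran from −0.296 to 0.387, and 4 of 11 exceeded 0.1. Some of these pairs joined tumors of different experiment codes, and the check could not settle whether a weak pairing exists. With a replicate block on that number, calls were 3, 0 and 3 in the 3 comparisons and medians −2.003, 1.19 and −0.81, and no call changed. Both low counts and the number of tumors limit Ngp, Camp and Cd177. Without the filter, their log2 fold changes in Ptgs-/- against Ptgs+/+ tumors were 2.70, −2.92 and −0.97 (edgeR adjusted p = 0.409, 0.0741 and 0.542), values that depend on a few counts.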
